A study of Gasterosteus aculeatus with 29 samples.

Results

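Daughters of sticklebacks whose fathers had met predation risk during paternal care were compared with daughters of fathers that had not. The species was the three-spined stickleback (Gasterosteus aculeatus), and the measurement was poly-A RNA of the whole brain by single-end sequencing, 1 library per fish. Daughters were taken as all fish that the labels give as female, which was 16 of the 29 fish of the series. The exposed fathers numbered 5 and had 9 daughters here, of which 5 had no exposure of their own (called paternal only) and 4 had also met predation risk themselves as juveniles (called both). The unexposed fathers numbered 5 and had 7 daughters, of which 5 had met predation risk as juveniles (personal only) and 2 had met none (neither). The labels give no strain, age or genetic change for any group. Fathers are named as in the labels, M9, M11, M15, M42 and M43 for the exposed ones and M8, M20, M31, M33 and M41 for the unexposed ones. A father has 1 to 3 daughters here, so sisters share a father, and the exposure was given to the father and not to each daughter separately.

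In this species the male alone guards the nest and tends the eggs and newly hatched fry. A father's encounter with a predator while he tends the young can therefore reach them through his care. The design of the series sets such a paternal cue beside the young fish's own experience. The brain is where cues of danger are turned into behaviour and hormone release, and its messenger RNA gives the average over all its neurons, glia and vessels. In such bulk RNA, fewer cells of a type and less RNA per cell cannot be told apart.

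The libraries of daughters of exposed fathers held 2244609 to 55155451 reads in the table (median 8121703), against 3313717 to 15234963 reads (median 6015286) in daughters of unexposed fathers. The sequencing lanes were uneven between the groups. Lanes 4 and 5 held 4 daughters of exposed and 4 of unexposed fathers, lanes 6 and 8 held 5 daughters of exposed fathers alone, and lane 7 held 3 daughters of unexposed fathers alone. The label of sex was checked with 10 genes higher in daughters and 10 higher in sons, chosen each time without the fish being scored. All 16 daughters lay on the female side. Of the 13 sons, 1 lay there too, and this son of M11 (both) is given with and without below. A son of M8 (neither) stood apart from all other fish, with a relative log spread of 1.52 against 0.249 to 0.443 in the daughters. The identifiers of the table were paired with no gene symbol in the sources used here, so genes are given by identifier, no function is named, and brain markers were not checked.

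No gene was called different between daughters of exposed and unexposed fathers once p-values were adjusted over all genes. limma called 0 of 16660 tested genes (0%) at an adjusted p under 0.05, with own exposure in the model and father as a random block, and the smallest adjusted p was 0.746. At an unadjusted p under 0.05 it listed 1013 genes (6.08%), of which 572 (3.43%) were higher and 441 (2.65%) lower in daughters of exposed fathers. Run on the reads recovered from the table, limma-voom likewise called 0 genes, and it listed 1628 at an unadjusted p under 0.05, with 715 higher and 913 lower, so the balance of directions turned with the method. It turned too with lane as a fixed term in limma, where 687 genes were listed, 320 higher and 367 lower. With the recovered reads rescaled, limma listed more genes higher than lower (564 against 456 and 591 against 423).

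The differences were small for most genes. The median absolute difference was 0.11 on the log2 scale, with a median standard error of 0.14, and the 5th and 95th percentiles of the signed differences were -0.38 and 0.40. The 95% interval of the difference lay within a 2-fold change in either direction for 14265 genes (85.6%) and within 1.5-fold for 68.3%. Precision followed the level of the gene. Of the 6205 genes with a mean log2 CPM of 4 to 7, 98.05% had an interval within 2-fold, against 35.4% of the 2353 genes below 1. At the median standard error, a lone gene needed a 1.93-fold difference to be called. Among genes below 1 it needed 7.18-fold, so smaller differences could go uncalled. A fitted difference over 2-fold was found upward for 131 genes and downward for 176 genes, of which 107 and 144 had a mean log2 CPM below 1.

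**Figure D1:**
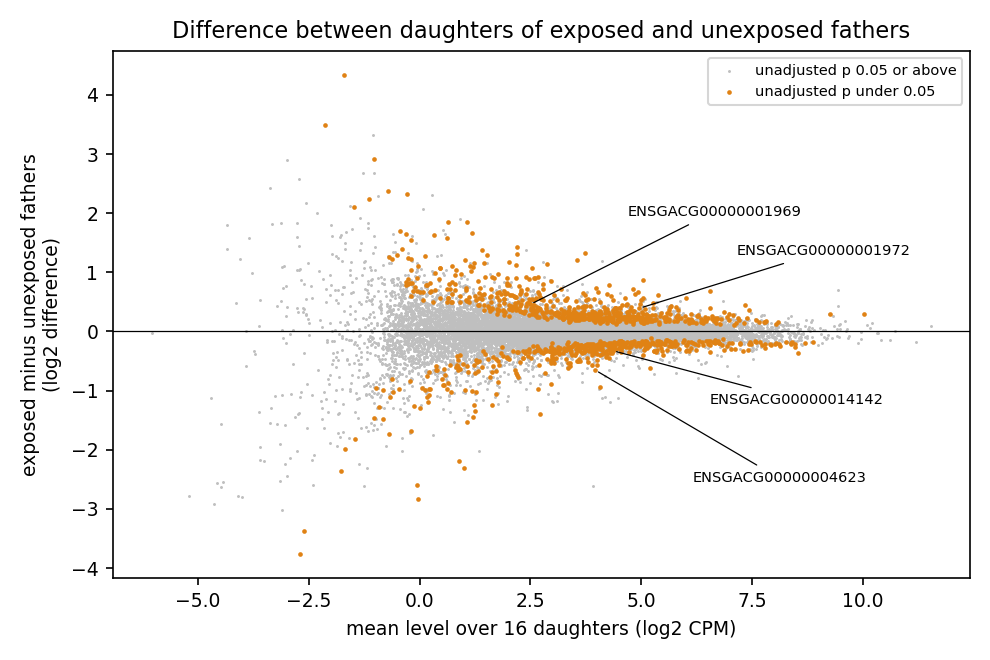
Each point is 1 of the 16660 tested genes, with its mean level in the 16 daughters (log2 CPM) on the x axis and the fitted difference, exposed minus unexposed fathers (log2), on the y axis. Orange points are the 1013 genes with an unadjusted p under 0.05, none of which passed adjustment, and the widest differences lie at low levels.

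Few genes separated the daughters completely. In 7 genes every daughter of an exposed father lay above every daughter of an unexposed father, and in 1 gene every one lay below, 8 genes in all (0.048% of those tested). Between the father means, 79 genes were fully above and 92 fully below, 171 in all (1.03%). No gene had reads in most daughters of 1 group and none in the other, a pattern that few genes of the table could meet. Reads in at least 5 of 9 daughters of exposed fathers with none in the others were found for 0 genes, and reads in at least 4 of 7 daughters of unexposed fathers with none in the others for 0 genes. Among daughters of unexposed fathers, the lane 5 daughter of M41 lacked reads in only 48 genes. Among daughters of exposed fathers, the lane 6 daughter of M42 lacked reads in only 20. These numbers cap how many genes could have met each pattern.

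The 2 genes with the smallest p-values in each direction are described next, and none of these 4 passed adjustment. ENSGACG00000001972 had a log2 CPM of 4.87, 5.08 and 5.32 (lowest, median and highest) in the 9 daughters of exposed fathers, against 4.42, 4.76 and 4.94 in the 7 daughters of unexposed fathers. The 2 lowest daughters of exposed fathers, of M9 and M15, lay inside the range of the other group. Its fitted difference was 0.39 ± 0.082 (SE, log2), or 1.31-fold, with a limma adjusted p of 0.746.

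ENSGACG00000001969 had a log2 CPM of 2.46, 2.73 and 2.83 in daughters of exposed fathers, against 2.07, 2.26 and 2.45 in daughters of unexposed fathers. The groups did not overlap, and the gap between the nearest fish, a daughter of M9 and a daughter of M8, was narrow. The means by father ran from 2.52 to 2.79 for exposed fathers and from 2.07 to 2.34 for unexposed fathers. The difference was 0.46 ± 0.098 (limma adjusted p of 0.746), on 33 to 747 reads in daughters of exposed fathers and 30 to 162 reads in daughters of unexposed fathers.

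Lower in daughters of exposed fathers was ENSGACG00000004623, at 3.31, 3.68 and 4.03 log2 CPM, against 4.30 as the median of daughters of unexposed fathers, whose lowest and highest were 3.84 and 4.62. The overlap came from the lane 5 daughter of M41 at 3.84. The means by father ran from 3.34 to 4.03 for exposed fathers and from 4.11 to 4.62 for unexposed fathers. The difference was -0.65 ± 0.15, or 0.637-fold (limma adjusted p of 0.746). With lane as a term it was -0.35 ± 0.18.

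ENSGACG00000014142 lay in a narrow band in daughters of exposed fathers, at 4.12, 4.24 and 4.28 log2 CPM, against 4.20, 4.57 and 4.67 in daughters of unexposed fathers. The daughter of M31 alone brought the groups to overlap, and the next lowest daughter of an unexposed father had 4.54. The difference was -0.32 ± 0.074, or 0.799-fold (limma adjusted p of 0.746).

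**Figure D2:**
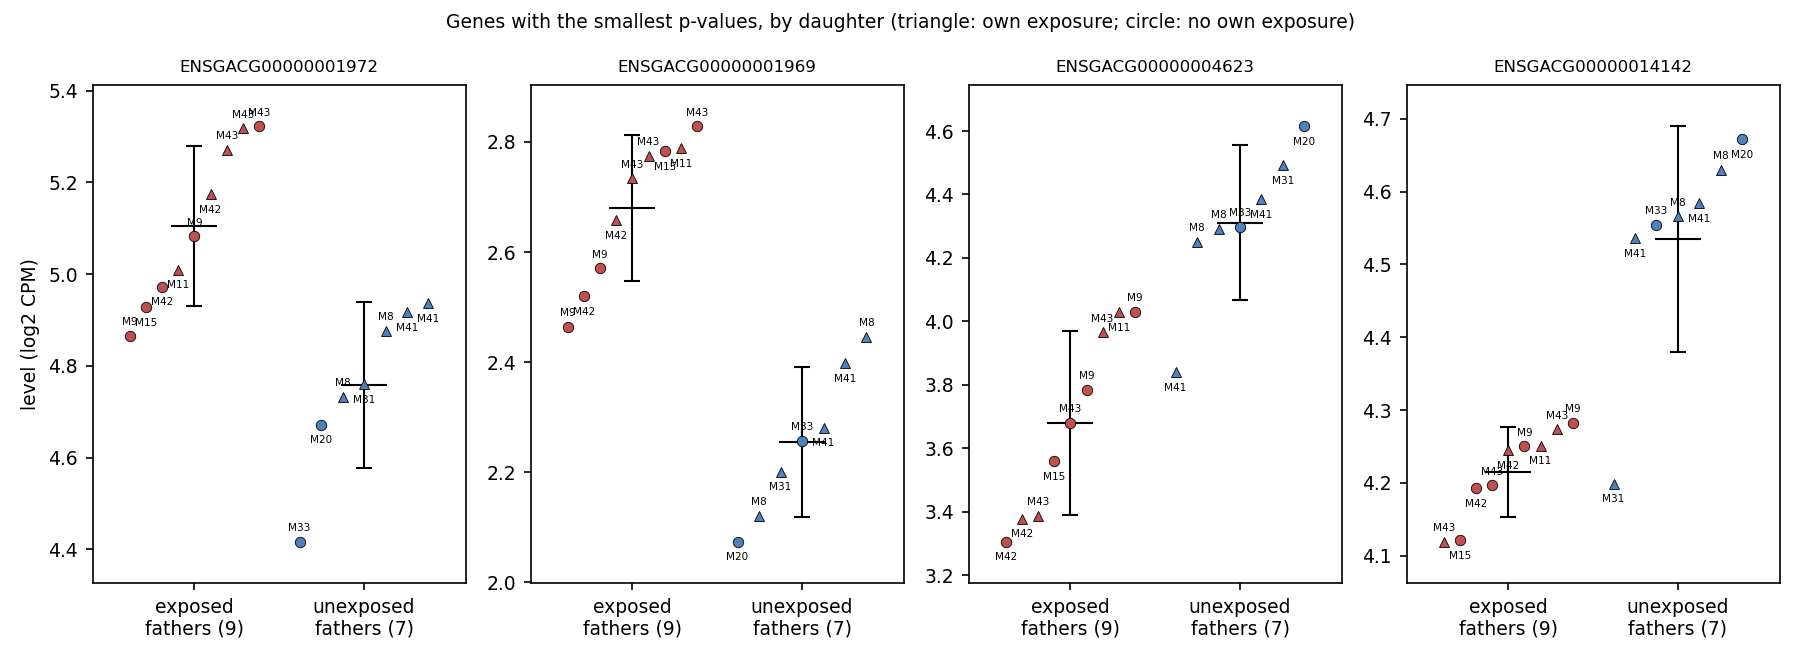
Each panel is 1 gene and each point 1 daughter, with log2 CPM on the y axis, the 9 daughters of exposed fathers left of the 7 daughters of unexposed fathers, the father written beside each point, and triangles for daughters with their own exposure. Horizontal lines and bars are means and SD, and the groups do not overlap for ENSGACG00000001969 while 1 or more fish overlap in the other 3 genes.

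The 8 daughters of lanes 4 and 5 allow the comparison within lanes. There, with lane as a term and no father block, the difference was 0.50 ± 0.10 for ENSGACG00000001972, 0.39 ± 0.16 for ENSGACG00000001969, -0.39 ± 0.18 for ENSGACG00000004623 and -0.36 ± 0.096 for ENSGACG00000014142. The directions were those of all 16 daughters. The fathers in these lanes are only M9 and M43 among the exposed, and M8, M33 and M41 among the unexposed. Here the daughters of M9 and M33 all lack own exposure, and those of M43, M8 and M41 all have it. Own exposure and family therefore cannot be told apart in these lanes. Lane 4 holds only 1 daughter of an unexposed father. Sisters of M8, M9 and M43 enter this fit as unrelated fish, so its standard errors do not allow for shared fathers. In this fit, added after the data were seen, limma called 0 genes, 1148 having an unadjusted p under 0.05. The planned fit of these 8 fish kept the father block, with an estimated sibling correlation of -0.464, and there limma called 6 genes, 5 higher and 1 lower, with 2776 at an unadjusted p under 0.05. A negative sibling correlation narrows the standard errors of differences between fathers. For ENSGACG00000001972 the standard error was 0.077 with the block and 0.10 without. The counts of the block fit rest on this estimate from few sisters. Of the 190 genes with an unadjusted p under 0.01 in all 16 daughters, all 190 kept their direction within these lanes, and 107 had a p under 0.05 there without the father block and 151 with it. These 8 fish are part of the 16, so the within-lane values are not a second sample.

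The call of another gene, chosen after its values were seen, changed with a single daughter. ENSGACG00000000759 had a log2 CPM of 3.20, 3.51 and 3.83 (lowest, median and highest) in daughters of exposed fathers, against 2.52, 2.64 and 3.69 in daughters of unexposed fathers. The value of 3.69 belonged to the lane 7 daughter of M41 (personal only replicate 4), whose sister had 2.64, and without her the groups did not overlap. The difference was 0.71 ± 0.17 (limma adjusted p of 0.746) with all 16 daughters and 0.84 ± 0.12 (limma adjusted p of 0.0364) without that fish. Over 44 alternative fits it ran from 0.61 to 1.04 with limma adjusted p-values of 0.0364 to 0.992, and 2 fits called it. Of the 4 fits that lack that daughter, the 2 that called the gene were this one and lanes 4 and 5 alone with the father block (limma adjusted p of 0.0426). The latter fit had the negative sibling correlation that narrows its standard errors. The 2 that did not were the fit without both daughters of M41 (limma adjusted p of 0.116) and lanes 4 and 5 without the block (limma adjusted p of 0.193). It was 0.34 ± 0.16 in sons, and 0.48 ± 0.16 with the M8 and M11 sons described above left out.

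The ranges of daughters of exposed and unexposed fathers overlapped on each of the main axes of variation. Over the genes of all 16 daughters, the first 3 principal components held 19.7%, 17.3% and 11.5% of the variance. On the first, daughters of exposed fathers ranged from -37.2 to 71.2 and daughters of unexposed fathers from -55.6 to 41.5. With 1 value per father, 5 against 5, two-sided exact permutation tests gave p = 0.921, p = 0.349 and p = 0.468 for components 1, 2 and 3. The relative log spread gave an exact p of 0.183 and the log10 of reads an exact p of 0.794. The adjusted values over these 5 measures ran from 0.78 to 0.921, and 0.00794 was the smallest p that the design allows.

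**Figure D3:**
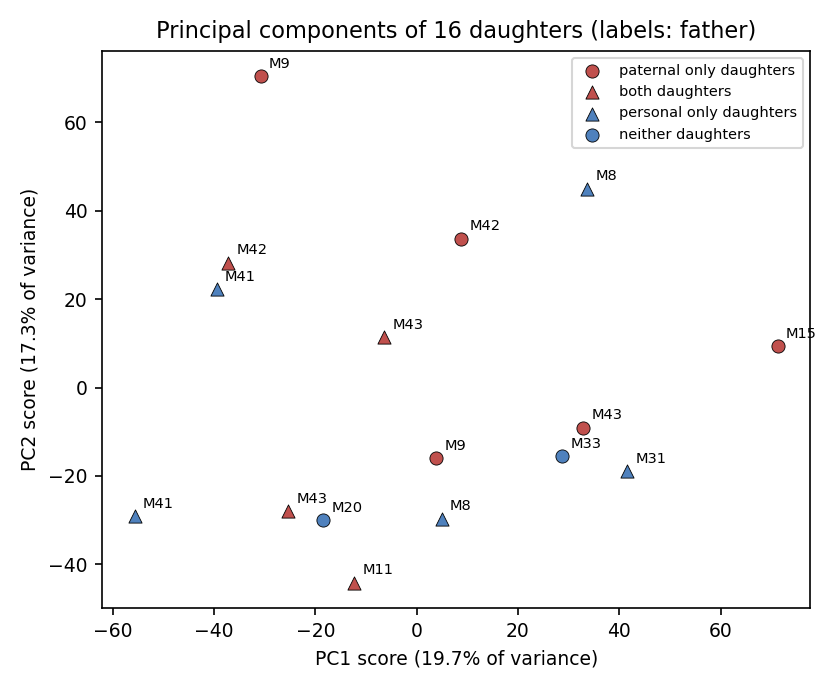
Scores of the 16 daughters on principal components 1 (x axis, 19.7% of variance) and 2 (y axis, 17.3%), with red for exposed and blue for unexposed fathers, triangles for own exposure and the father written beside each point. Red and blue points are mixed along both axes, and daughters of 1 father can lie far apart, as those of M9 do.

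Daughters of different fathers differed by about as much whether the fathers shared their exposure or not. Summed over all 16660 tested genes on the log2 scale, own exposure, entered first, took 6.77% of the sum of squares on 1 degree of freedom. The father's exposure, entered after it, took 6.50% on 1. Own exposure is uneven between the father groups, so these 2 shares depend on the order of entry. Genes were not weighted, so an imprecise gene of low level counts for more in these shares than a precise one. Fathers of the same exposure took 60.1% on 8 degrees of freedom and sisters of 1 father 26.6% on 5. The mean square per gene was 0.359 for the father's exposure, 0.415 between fathers of the same exposure and 0.294 between sisters. The root mean square difference between 2 fish was taken over the 14307 genes with a mean log2 CPM of 1 or more. Its median was 0.530 log2 over the 63 pairs of daughters with different paternal exposure. It was 0.521 over the 50 pairs with different fathers of the same exposure and 0.512 over the 7 pairs of sisters. The sibling correlation that limma estimated in the main model was 0.183. Spread within groups was also close, with a median SD over genes of 0.222 in daughters of exposed fathers and 0.211 in daughters of unexposed fathers, and 55.0% of 14307 genes had the higher SD in daughters of exposed fathers.

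Among daughters without their own exposure, paternal only was compared with neither. limma called 0 genes (0%) at an adjusted p under 0.05, with a smallest adjusted p of 0.642, and listed 853 (5.12%) at an unadjusted p under 0.05. limma-voom called 0 and listed 855. The neither group is 2 fish, of M20 in lane 7 and of M33 in lane 5.

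ENSGACG00000004182 had a log2 CPM of 1.99, 2.96, 3.26, 3.61 and 4.12 in the 5 paternal only daughters, against -0.24 and 0.25 in the 2 neither daughters. The groups were far apart, on 38 to 369 reads in paternal only and 6 and 26 reads in neither daughters. The difference was 3.11 ± 0.61 (limma adjusted p of 0.642). ENSGACG00000013996 had 2.72, 2.96, 3.07, 3.19 and 3.31 in paternal only daughters, against 0.63 and 1.07 in neither daughters, a difference of 2.14 ± 0.43 with the same adjusted p from limma. This gene had 11 or more reads in each of the 16 daughters, while 5 of the 13 sons had 0 reads. Sons also reached the range of the daughters, namely the M42 son (74 reads, 2.59 log2 CPM), the M31 son (14 reads, 1.16) and the M11 son on the female side (96 reads, 1.16). The remaining sons had 1 to 11 reads.

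In the other direction, ENSGACG00000009704 had a log2 CPM of 3.36, 3.68, 3.70, 3.71 and 3.73 in paternal only daughters, against 4.25 and 4.41 in neither daughters. All paternal only daughters lay below both, by -0.70 ± 0.13 in the fit. ENSGACG00000002529 had 3.20, 3.21, 3.29, 3.53 and 3.88 in paternal only daughters, against 4.31 and 4.81 in neither daughters, a difference of -1.11 ± 0.25. Both had a limma adjusted p of 0.642.

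Leaving out the M20 daughter (neither replicate 1) gave 549 genes at an unadjusted p under 0.05 in place of 853, with 0 called by limma. Leaving out the M33 daughter (neither replicate 2) changed the count of calls. limma then called 12 genes higher in paternal only daughters against the lone M20 daughter, whose spread was taken to be that of the other groups. All 12 had a mean log2 CPM below 1. The M20 daughter had 0 reads in 10 of them and at most 1 read in any, while the M33 daughter had 12 to 47 reads. With both fish the smallest adjusted p among these 12 genes was 0.728.

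Among daughters with their own exposure, both was compared with personal only. limma called 0 genes (0%), with a smallest adjusted p of 0.993, and listed 662 (3.97%) at an unadjusted p under 0.05. limma-voom called 0 and listed 1414.

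ENSGACG00000016637 had a log2 CPM of 1.35, 2.25, 2.27 and 2.71 in the 4 both daughters, against 0.61, 0.95, 1.13, 1.25 and 1.31 in the 5 personal only daughters. The groups did not overlap, by a narrow gap, and the difference was 1.12 ± 0.26. ENSGACG00000004993 had 4.52, 4.68, 4.70 and 4.86 in both daughters, against 4.00, 4.13, 4.17, 4.35 and 4.35 in personal only daughters, a difference of 0.48 ± 0.11. ENSGACG00000000065 had 3.26, 3.27, 3.37 and 3.56 in both daughters, against 3.67, 3.97, 4.12, 4.15 and 4.48 in personal only daughters. Again no fish crossed, with a difference of -0.74 ± 0.17. ENSGACG00000008400 had 2.33, 2.36, 2.53 and 2.65 in both daughters, against 2.89, 2.96, 3.06, 3.09 and 3.13 in personal only daughters, a difference of -0.54 ± 0.13. The limma adjusted p was 0.993 for each of these 4 genes, which were picked for their small p among 16660.

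The test of whether the paternal difference depended on a daughter's own exposure called 0 genes (0%) with limma. The smallest adjusted p was 1.00, an unadjusted p under 0.05 was reached by 587 genes (3.52%), and limma-voom called 0 and listed 715. Across the 16660 genes, the paternal difference in daughters without own exposure had a Pearson r of 0.00586 and a Spearman rho of 0.119 with that in daughters with own exposure, and 55.6% of genes had the same sign. Restricted to the 14307 genes whose mean log2 CPM was 1 or more, r was 0.093. These are correlations across genes, which are not independent replicates, and the strata share exposed fathers (M42 and M43) but no fish. No unexposed father has daughters in both strata. M20 and M33 have neither daughters only, and M8, M31 and M41 personal only daughters only. Own exposure and family therefore cannot be told apart among daughters of unexposed fathers, and the interaction carries this limit.

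ENSGACG00000004182 led this test. Its 4 both daughters had 0.08, 1.17, 2.05 and 2.41 log2 CPM, against 1.55, 1.65, 2.14, 2.73 and 3.14 in personal only daughters, a difference of -0.87 ± 0.51 where daughters without own exposure had 3.11 ± 0.61. The interaction was -3.98 ± 0.77 (limma adjusted p of 1.00). ENSGACG00000004186 had the same order of group means, at 6.04 ± 0.84 in paternal only (SD, n = 5) and 3.62 ± 0.27 in neither daughters (SD, n = 2), and 4.52 ± 0.63 in both (SD, n = 4) and 5.18 ± 0.74 in personal only daughters (SD, n = 5). Its interaction was -3.03 ± 0.69. Over the 16 daughters its values had a Pearson r of 0.976 with those of ENSGACG00000004182, so the 2 genes carry nearly the same profile.

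The opposite order was seen in ENSGACG00000016177. It averaged 3.16 ± 0.11 in paternal only and 4.08 ± 0.21 in neither daughters, and 3.62 ± 0.14 in both and 3.19 ± 0.39 in personal only daughters, with an interaction of 1.31 ± 0.27. ENSGACG00000004180 averaged 2.58 ± 0.17 in paternal only and 3.40 ± 0.31 in neither daughters, and 3.04 ± 0.28 in both and 2.65 ± 0.21 in personal only daughters, with an interaction of 1.22 ± 0.26. In all 4 genes the contrast rests in part on the 2 neither daughters, and the limma adjusted p was 1.00.

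**Figure D4:**
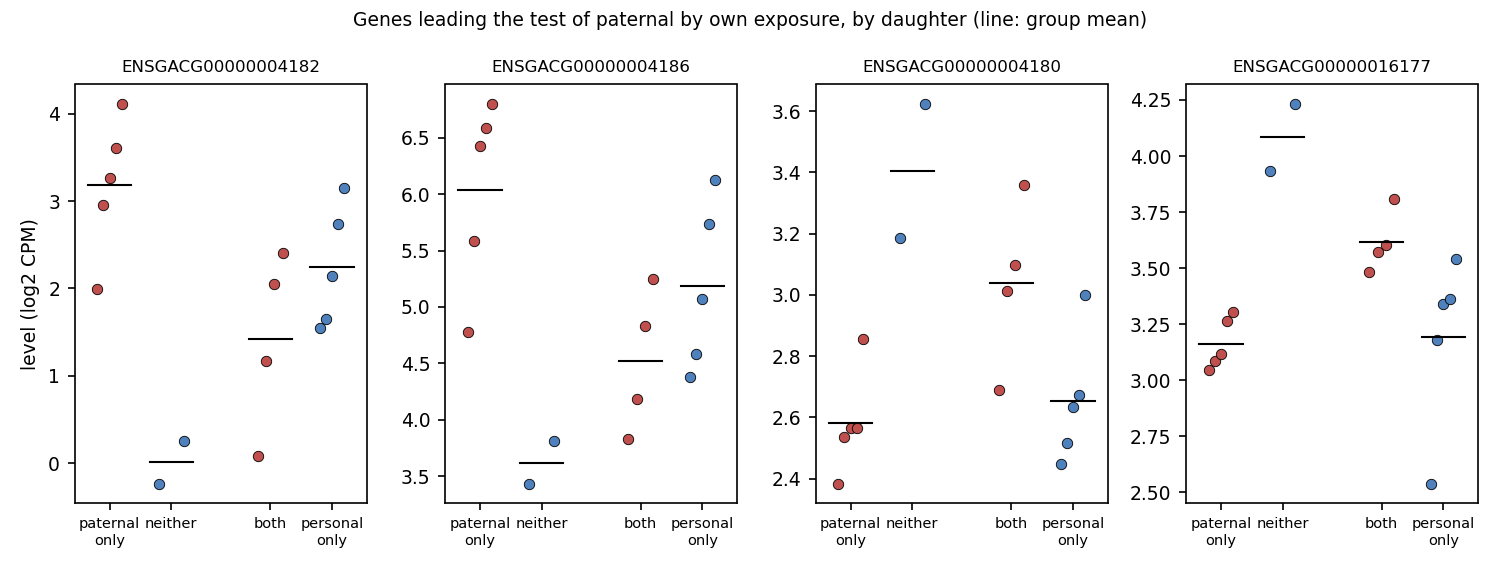
Each panel is 1 gene and each point 1 daughter, with log2 CPM on the y axis and the 4 groups on the x axis, paternal only beside neither and both beside personal only (red for exposed and blue for unexposed fathers), and lines for group means. The 2 neither daughters lie below all paternal only daughters in ENSGACG00000004182 and ENSGACG00000004186, and higher than all of them in ENSGACG00000004180 and ENSGACG00000016177.

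The paternal difference in daughters was set beside that in sons, 6 sons of 3 exposed fathers and 7 sons of 4 unexposed fathers. Of the 10 fathers of daughters, 7 also have sons here, so the fish differ while most families are shared. The difference between the sexes called 0 genes (0%) with limma, with a smallest adjusted p of 0.788, an unadjusted p under 0.05 was reached by 819 genes (4.92%), and limma-voom called 0 and listed 865. Without the M11 son, 1362 genes had an unadjusted p under 0.05, and without both the M8 and the M11 son 852 did, with 0 called by limma in either case. Across the 16660 genes, the paternal differences in daughters and sons had a Pearson r of 0.136 and a Spearman rho of 0.246, and 59.5% had the same sign. Of the 1013 genes with an unadjusted p under 0.05 in daughters, 771 (76.1%) had the same sign in sons, and with the M8 and M11 sons left out 786 (77.6%) did, against 60.8% of all tested genes. Shared families and shared paternal exposure cannot be told apart in this share.

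Of the 4 genes leading the comparison in daughters, 2 had a difference of the same direction in sons, larger than its standard error. ENSGACG00000001969 differed by 0.61 ± 0.27 in sons and by 0.46 ± 0.13 without the M8 and M11 sons, and ENSGACG00000014142 by -0.55 ± 0.20 and -0.55 ± 0.16. The other 2 were near 0 in sons. ENSGACG00000001972 differed by 0.01 ± 0.16, or -0.07 ± 0.14 without these 2 sons, and ENSGACG00000004623 by -0.12 ± 0.13, or -0.02 ± 0.11. None of the 4 passed the test between the sexes.

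**Figure D5:**
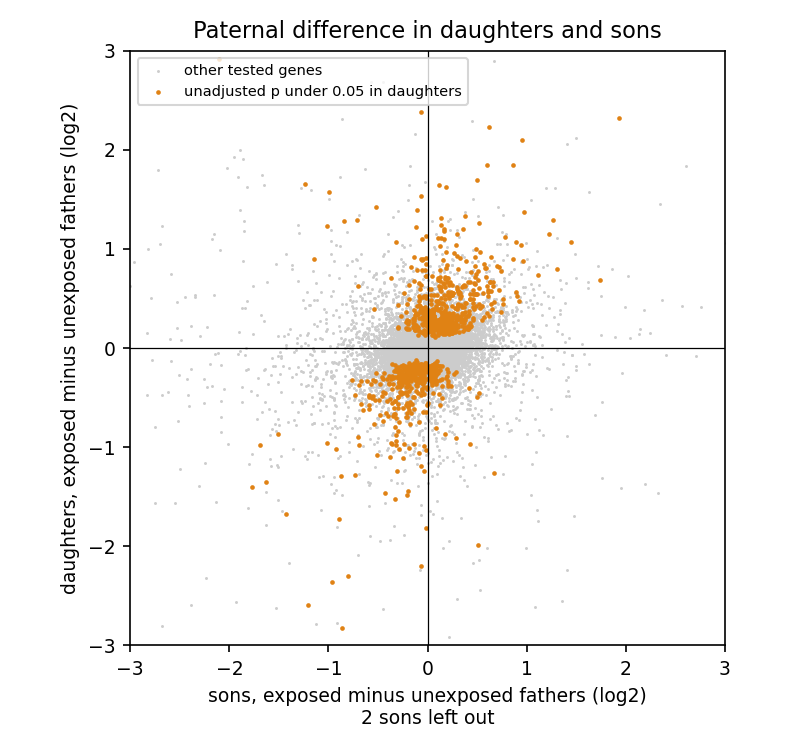
Each point is 1 gene, with the difference between exposed and unexposed fathers (log2) in daughters on the y axis and in sons, the M8 and M11 sons left out, on the x axis. Orange points are the 1013 genes with an unadjusted p under 0.05 in daughters, of which 786 lie in the quadrants of equal sign, and 36 genes lie beyond the plotted range of 3 log2 units either way.

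The genes with the smallest p in the test between the sexes were chosen for a gap between daughters and sons, so their signs are a description. In 3 of these 4 genes the sons had much the larger difference. ENSGACG00000003949 averaged 3.66 ± 0.13 log2 CPM in daughters of exposed fathers (SD, n = 9) and 3.52 ± 0.094 in daughters of unexposed fathers (SD, n = 7), while in sons it averaged 3.32 ± 0.29 (SD, n = 6) with exposed and 3.78 ± 0.19 (SD, n = 7) with unexposed fathers. Without the M8 and M11 sons, the sons averaged 3.25 ± 0.27 (SD, n = 5) with exposed and 3.73 ± 0.13 (SD, n = 6) with unexposed fathers. The fitted difference was 0.12 ± 0.084 in daughters and -0.48 ± 0.13 in sons, and daughters minus sons gave 0.60 ± 0.14 with all sons and 0.65 without these 2. ENSGACG00000004588 averaged 3.03 ± 0.77 in daughters of exposed fathers and 1.99 ± 0.64 in daughters of unexposed fathers, and 1.87 ± 0.49 and 2.91 ± 0.73 in the sons of exposed and unexposed fathers, or 1.71 ± 0.35 and 2.96 ± 0.78 without the 2 sons. Its difference was 0.90 ± 0.35 in daughters and -1.02 ± 0.31 in sons, giving 1.90 ± 0.47 with all sons and 1.96 without the 2.

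In the other direction, ENSGACG00000003153 averaged 2.78 ± 0.31 in daughters of exposed fathers and 2.97 ± 0.24 in daughters of unexposed fathers, and 3.20 ± 0.34 and 2.62 ± 0.52 in the sons of exposed and unexposed fathers, or 3.26 ± 0.35 and 2.77 ± 0.37 without the 2 sons. The difference was -0.28 ± 0.14 in daughters and 0.61 ± 0.23 in sons. ENSGACG00000010807 averaged 3.13 ± 0.23 in daughters of exposed fathers and 3.23 ± 0.36 in daughters of unexposed fathers, and 3.85 ± 0.50 and 2.95 ± 0.63 in those sons, or 3.97 ± 0.47 and 3.18 ± 0.14 without the 2. The difference was -0.15 ± 0.16 in daughters and 0.92 ± 0.29 in sons. Daughters minus sons gave -0.89 ± 0.26 for ENSGACG00000003153 and -1.05 ± 0.32 for ENSGACG00000010807 with all sons, and -0.80 and -0.93 without the 2. All 4 genes had a limma adjusted p of 0.788 with all sons and of 0.18 to 0.917 without the 2.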

How the data were processed

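For 17730 genes in 29 fish 1 table of log2 CPM was deposited by the authors, that is, reads scaled by a library size and put on the log2 scale after adding a small prior. Per the submitters' processing notes, the tools were edgeR, HTSeq 0.6.1, TopHat2 2.0.8 and CASAVA 1.8.2. NCBIM37, the build these notes name, is a mouse assembly, so the stickleback build is unknown here. Coordinates and sequences are therefore not reported. The strand setting of the counting is not given in the sources used, and the values of antisense genes and near-identical paralogs are uncertain. The reference table (assembly fGasAcu3.hap1.1) matched 0 identifiers, so gene lists were not tested. The labels' protocols state 9 paternal only fish, and 8 of both sexes were analysed here.

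The deposited log2 values step in whole reads: 100% of values came out whole within 0.01 reads, and the floor of -6.77 is 0 reads plus a prior. The floor is the same in all libraries, so the prior scales with library size. It is 0.25 reads at the mean size, less in small libraries and more in large ones. Differences of genes with few reads are imprecise on this scale, and a difference from 0 reads depends on the prior. Below a mean log2 CPM of 1 the median absolute difference was 0.30 with a median standard error of 0.41. Over all tested genes these were 0.11 and 0.14. The reads of the table make 44.6% to 47.0% of the library size behind the values in the daughters. Read numbers carry counting error and PCR copies, while the intervals of differences rest on the spread between fish.

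Groups follow the labels, lanes the library titles, and replicates are numbered in deposition order. A gene was tested if 5 or more of the 29 fish had a log2 CPM above 0, which left 16660. The 16 daughters were fitted with limma-trend (R 4.3.3, limma 3.58.1, statmod 1.5.0), with paternal and own exposure as terms and father as a random block, Benjamini-Hochberg adjusted with a threshold of 0.05. The 2 strata and their interaction came from 4 group means, and the difference between the sexes from all 29 fish. Fathers are nested in exposure, so father cannot be a fixed block. Named genes are at most 2 higher and 2 lower per comparison with the smallest p among genes whose mean log2 CPM was 1 or more. The comparison, lists and rules were chosen with earlier results of these data known. edgeR and DESeq2 tests were planned and not run, and limma-voom on the recovered reads was the count-based test. Other alternatives were scaling, filters, priors, lane terms, variance settings and leaving out each daughter or father.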

Additional observations from a re-analysis of the deposited data

Results flagged for a closer look

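Of 49 sets of values tested for a fish far from the others of its group, 3 met the limit, where chance flags about 1 in 20. ENSGACG00000014142 was 4.20 log2 CPM in the M31 daughter (personal only replicate 3), against 4.54 to 4.67 in the other daughters of unexposed fathers. ENSGACG00000009704 was 3.36 log2 CPM in the M42 daughter among the paternal only fish (replicate 5), against 3.68 to 3.73 in the others. The M11 daughter (both replicate 4), which had the fewest reads of the daughters at 2244609, had 394 genes with 0 reads, against 20 to 181 in the other daughters of exposed fathers.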

How the results depend on the processing

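The count of 0 called genes in daughters was unchanged in all but 2 of 45 alternatives, the unchanged ones including no father block, 1 value per father, both rescalings, limma-voom, lane as a fixed term, no filter and a threshold of 0.1. Leaving out each daughter gave 0 to 1 genes for the paternal difference, 0 to 12 for daughters without own exposure, 0 to 0 for those with it, 0 to 9 for the interaction and 0 to 0 for daughters minus sons. The 12 and the 9 genes, 9 of them shared, came without the M33 daughter. Leaving out each father gave 0 genes in 10 fits, with 763 to 1453 at an unadjusted p under 0.05 by limma. With lanes 4 and 5 alone and lane as a term, limma called 6 genes (5 higher, 1 lower), with an estimated sibling correlation of -0.464, which narrows the standard errors. Without the father block, an alternative added after seeing that correlation, it called 0. Of the 190 genes at an unadjusted p under 0.01, 187 stayed under 0.05 in the same direction with 1 value per father, 185 with limma-voom and 100 with lane as a term. These refits use the same fish that picked the 190 genes, so their staying is not separate evidence for a difference. In daughters minus sons, genes at an unadjusted p under 0.05 numbered 1362 without the M11 son and 852 without both sons set aside. The 4 leading genes kept their direction and stayed above the threshold in all 44 alternatives, with differences of 0.33 to 0.50 (ENSGACG00000001972), 0.37 to 0.49 (ENSGACG00000001969), -0.73 to -0.35 (ENSGACG00000004623) and -0.38 to -0.29 (ENSGACG00000014142). No paired analysis was possible because replicate numbers follow deposition order and fathers are nested in exposure. The planned edgeR and DESeq2 tests were not run. Depth and 5 fathers a group limit what could be detected.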
